A study of Homo sapiens with 8 samples.

Results

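The ZNF genes encode most of the zinc finger transcription factors of the human genome, and the 300 of them with the most transcript in unstressed human neurons are described here after 8 h of mitochondrial poisoning. They were taken from the 509 protein-coding genes whose symbol is ZNF followed by a number, ranked by mean TPM (transcript abundance per length, scaled to the library) in the 4 vehicle libraries. The gene tables list 62826 genes in all. Vehicle levels alone chose the genes, so those levels are a description, and the comparison of treated with vehicle cells is the measurement. Counts over all 300 genes, large changes, KRAB genes, sequence sharing and promoter CG are also given with the genes chosen by other libraries. Counts by cluster, chromosome, finger number, list, motif and transcript usage are given for the vehicle choice alone.

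A zinc finger of the C2H2 kind is a short fold held by a zinc ion, and arrays of such fingers read DNA sequence. Many ZNF proteins also carry a KRAB domain, which binds the corepressor TRIM28 and through it the histone methyltransferase SETDB1, and silences retroelements and other targets. KRAB genes arose by repeated tandem duplication and sit in clusters, most of them on chromosome 19.

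The cells were LUHMES, a human mesencephalic precursor line held in division by a tetracycline-controlled transgene. All 8 cultures, labelled wild type, were differentiated for 6 days in medium with tetracycline (1 µg/mL), dbcAMP (1 mM) and the growth factor GDNF (2 ng/mL). The treated group (n = 4) then received antimycin A at 25 µM, which blocks respiratory complex III, together with oligomycin at 10 µM, which blocks ATP synthase, for 8 h, and the vehicle group (n = 4) received DMSO. Each group has differentiation numbers 2 to 5, with 1 library per number, and the series text speaks of independent batches with 4 technical replicates in each. All cultures are of 1 established line, so p-values measure the spread between cultures of that line. The 10 neuronal markers were present, and 5 of them fell and 2 rose. Their summed TPM was 5007 to 6305 in vehicle and 4472 to 4661 in treated libraries. Of 10 markers of the labelled dopaminergic type, SLC18A2, LMX1B, ALDH1A1 and FOXA2 stayed under 0.1 TPM in every library. Of 10 markers of dividing precursors 8 fell and 2 rose, from a summed 247 to 379 TPM to a summed 199 to 222 TPM, and their part in the results below was not tested. Summed TPM of other cell types went from 21.4 to 26.1 in vehicle to 29.97 to 33.0 in treated libraries for astrocytes (GFAP and AQP4 under 0.1), and from 40.2 to 64.6 to 29.1 to 36.5 for the oligodendrocyte lineage. It went from 0.06 to 0.1 to 0.3 to 0.36 for microglia, and from 10.04 to 22.4 to 9.96 to 13.7 for mesenchymal and vascular cells. In such bulk samples, fewer cells of a type and less RNA per cell cannot be told apart.

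Libraries held 93.7 M to 110.0 M estimated reads, of which the 300 genes took 1.47 to 1.5% in vehicle and 1.33 to 1.45% in treated cells. The vehicle library of differentiation 2 stood apart: its counts differed from those of the other vehicle libraries by a chi-square of 312 to 435 per degree of freedom, against 14 to 39.8 among the other 3. Among the treated libraries, that of differentiation 5 differed from the rest by 58.1 to 120, against 15.2 to 28.1 among the other 3. Summed over the 300 genes, TPM was 7512, 8867, 8674 and 8909 in the vehicle libraries of differentiations 2 to 5, and 7825, 8045, 8137 and 8465 in the treated ones. The groups overlapped in this sum only through the vehicle library of differentiation 2.

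All 300 genes passed the filter on low counts, with no gene under 120 reads in any library and a median of 3025. Of the 300 genes, 84 rose and 97 fell, which is 28% and 32.3%, and 119 passed the threshold in neither direction (edgeR quasi-likelihood test, Benjamini-Hochberg adjusted p under 0.05 over all 19785 genes tested). The background was close, with 57.9% of all genes called in either direction: 27.7% of all genes were called higher and 30.2% lower, and 30.0% and 29.2% of protein-coding genes. The median log2 fold change was -0.04 over the 300 genes and 0.02 over protein-coding genes. Scaling by library totals in place of TMM factors changed the split to 54 higher and 122 lower, and shifted the median over all genes from -0.02 to -0.12. Choosing the 300 by TPM over all 8 libraries gave 98 higher and 83 lower, and choosing them by treated TPM gave 108 and 72. The direction of the excess thus turned with the choice of genes.

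Large changes were few. A log2 change of 1 or more was called in 13 of the 300 genes, 1 upward and 12 downward, and in 464 of 8751 other coding genes in the same TPM range, 247 upward and 217 downward. With the 300 chosen over all 8 libraries there were 3 upward and 7 downward, and with the 300 chosen by treated TPM 4 and 3. In 155 of the 300 genes the vehicle and treated libraries did not overlap in CPM (reads scaled to the library size), 68 of them higher and 87 lower, against 54.5% of protein-coding genes. Of the 209 ZNF genes below the 300, 178 were tested, of which 50 rose and 69 fell, 8 and 25 of them by a log2 change of at least 1.

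**Figure D1:**
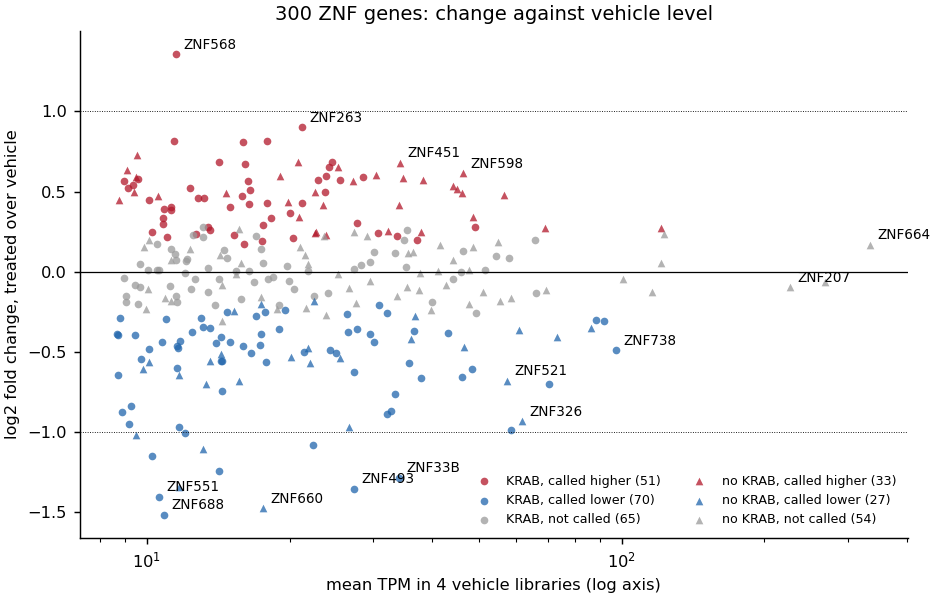
Log2 fold change after treatment plotted against mean vehicle TPM (log axis) for the 300 ZNF genes, by KRAB domain (symbol) and call (colour); dotted lines mark a log2 change of 1 and -1. ZNF568 is the only gene above the upper line and 12 genes lie below the lower one, while the most abundant genes stay near 0.

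Of the 10 most abundant ZNF genes, 1 rose and 2 fell. ZNF664, a KRAB-free gene with 9 fingers, had the highest vehicle level, at 298.1, 346, 339 and 351 TPM, and 353, 357, 364 and 410 TPM in treated libraries. Its treated values all lay narrowly above its vehicle values in TPM, while in CPM the groups overlapped through the vehicle library of differentiation 2 and the log2 change was 0.17 ± 0.08 (SE), adjusted p = 0.0858. Without that library the change was 0.23 with an edgeR adjusted p of 5.59e-03. ZNF385A, an RNA-binding modulator of p53 targets, followed at 269 ± 10.3 TPM (SD, n = 4), and ZNF207, which brings BUB3 to kinetochores and spindles, at 226 ± 2.22 TPM. These 3 levels did not overlap with each other. ZNF428, ZNF146 and ZNF358 came next at 121 to 123 TPM and could not be ordered, because their ranges overlapped. In all, 8 genes reached 100 TPM, and the 10 highest held 18.8% of the summed vehicle TPM of the 300.

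Both falls were in KRAB genes. ZNF738, in which no finger matched the C2H2 pattern, had 90.01, 95.3, 101.3 and 103 TPM in vehicle libraries and 54.0, 50.1, 54.4 and 53.3 TPM in treated ones. No treated library reached a vehicle one, and in CPM it fell by 0.49 ± 0.08 on the log2 scale (adjusted p = 0.0005), or by 0.82 with an offset for transcript length. ZNF286A fell by 0.31 ± 0.07, or by 0.48 with the length offset, though 79.5% of its transcript sequence is shared with other genes in stretches of 31 bases, so the authors' counting could split its reads. ZNF146 rose by 0.27 ± 0.10, with overlapping groups and an adjusted p of 0.0348 that was lost in 7 of 13 other fits. At the other end, the limit of the 300 fell between ZNF730 (8.69 TPM) and ZNF235 (8.68 TPM) inside and ZNF549 (8.66 TPM) and ZNF571 (8.56 TPM) outside.

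The single rise above a log2 change of 1 was ZNF568, a KRAB gene whose mouse ortholog silences a placental Igf2 transcript. It is at chromosome 19, positions 36916329 to 36998700 (hg38, plus strand). Its CPM was 31.1, 30.8, 28.1 and 27.3 in vehicle libraries and 69.7, 73.5, 74.7 and 82.1 in treated libraries. Every treated value was more than double every vehicle value, with a log2 change of 1.36 ± 0.08 (adjusted p = 3.4e-07). Per transcript length the rise was smaller, from 11.5 ± 1.45 to 21.6 ± 1.43 TPM (SD, n = 4), and the log2 change was 0.97 with a length offset. The transcripts it used changed too, as given further on. Just upstream on the same strand lies ZNF345, positions 36850361 to 36913029, a KRAB-free gene with 15 fingers, which did the reverse. Its CPM was 20.7, 17.1, 14.8 and 14.9 in vehicle libraries and 6.11, 7.19, 6.65 and 6.66 in treated ones, a log2 change of -1.34 ± 0.12 (adjusted p = 6.4e-06). The groups were far apart in both genes. The 250 bases before each start site are shown because the genes are direct neighbours with opposite responses. They come from RefSeq on GRCh38.p14, chr19:36916082-36916331 for ZNF568 and chr19:36850626-36850875 for ZNF345, both on the plus strand, with each CG in capitals. The RefSeq start of ZNF345 lies inside the gene span given above:
ZNF568: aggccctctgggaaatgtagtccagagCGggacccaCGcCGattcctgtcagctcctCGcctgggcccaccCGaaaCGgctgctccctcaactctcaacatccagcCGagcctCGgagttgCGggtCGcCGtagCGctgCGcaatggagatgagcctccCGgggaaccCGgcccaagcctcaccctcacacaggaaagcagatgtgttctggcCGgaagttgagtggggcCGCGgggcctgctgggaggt
ZNF345: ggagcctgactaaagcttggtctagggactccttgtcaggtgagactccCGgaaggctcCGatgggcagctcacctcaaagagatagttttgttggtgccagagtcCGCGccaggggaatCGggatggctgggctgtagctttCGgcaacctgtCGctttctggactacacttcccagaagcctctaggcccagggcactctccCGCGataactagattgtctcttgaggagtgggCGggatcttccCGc
The ZNF568 stretch holds 18 CG and the ZNF345 stretch 11.

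These genes belong to a run of 13 of the 300 genes on chromosome 19, from ZNF146 to ZNF607, in which neighbours were less than 1 Mb apart. Of the 13, 7 rose and 2 fell, with a median log2 change of 0.22. Besides ZNF568, the rises included ZNF529 (0.81 ± 0.08) and ZNF420 (0.81 ± 0.11), also called APAK and described as a brake on p53-driven apoptosis. ZNF529 starts on the minus strand 459 bases beyond the start of ZNF382 on the plus strand, so the genes overlap head to head. ZNF529 rose while ZNF382, named after its values were seen, fell by 0.50 ± 0.10 on the log2 scale (adjusted p = 0.0012). No source used here says whether reads were counted by strand, so reads in that stretch may belong to either gene.

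**Figure D2:**
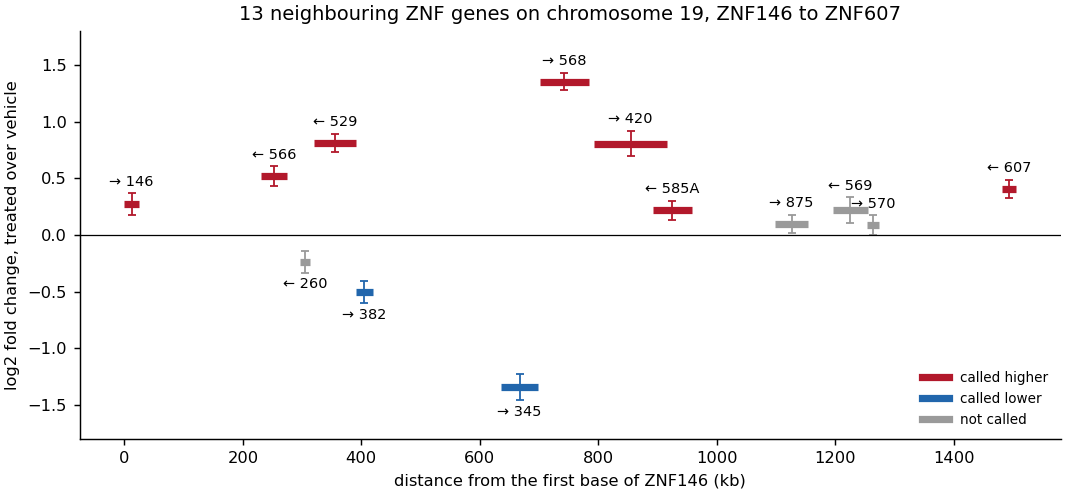
Log2 fold change (treated over vehicle, bar at the gene's extent, whisker ± SE) of the 13 neighbouring ZNF genes from ZNF146 to ZNF607, against distance in kb; arrows give the strand and labels the ZNF number. ZNF345 at -1.34 and ZNF568 at 1.36 are next to each other among these 13 genes.

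Other clusters, named here with their values known, leaned differently or not at all. Rises and falls were equal from ZNF605 to ZNF268 and from ZNF445 to ZNF35 (2 and 2 in 5 genes each). They were also equal from ZNF48 to ZNF646 and from ZNF786 to ZNF775 (3 and 3 in 9 each). Among all 300 genes 28% rose and 32.3% fell. On chromosome 7, from ZNF736 to ZNF92 (64307459 to 65401135), 5 of 7 genes fell (71.4%) and none rose, with a median of -0.47. ZNF273 fell by 1.01 there and ZNF107 by 0.97, and the other 3 falls were ZNF680, ZNF117 and ZNF92. The count of 5 lower and 0 higher was the same in each of 13 other fits, all with the genes chosen by vehicle TPM. Part of the ZNF273 transcript sequence is shared with other genes, as given below. On chromosome 19, the cluster from ZNF577 to ZNF761 had 9 falls and 3 rises in 22 genes, and the large telomeric cluster from ZNF628 to ZNF446 had 13 rises and 8 falls in 34. By library totals that last split became 8 rises and 10 falls. Over all clusters there were 179 pairs of neighbours, and both were called in the same direction in 39 pairs and in opposite directions in 29. In the other 111 pairs the genes were not both called. Whether neighbours shared a direction more often than genes paired at random was not tested.

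The next rises after ZNF568, taken like all largest rises and falls named here from genes with the same sign in every pair of same-numbered libraries, were smaller. ZNF263, a factor with a SCAN and a KRAB domain, had CPM of 32.4, 35.9, 34.2 and 33.5 in vehicle libraries and 62.8, 63.6, 64.9 and 62.5 in treated ones. The groups did not overlap, and its log2 change of 0.90 ± 0.06 was the next largest rise (adjusted p = 9.1e-07). Of its exon sequence 33.1% overlaps TIGD7 on the other strand. ZNF335, a subunit of a histone H3K4 methyltransferase complex that is mutated in microcephaly, had 16.4, 19.999, 22.0 and 21.1 CPM in vehicle libraries and 34.8, 34.8, 35.4 and 26.9 in treated ones. The treated library of differentiation 5 was its lowest treated value and still exceeded every vehicle value, and the log2 change was 0.73 ± 0.11 (adjusted p = 3.7e-04). ZNF451, a SUMO ligase, rose from 76.3 ± 3.33 to 122 ± 8.93 CPM, and ZNF592, a partner of ZMYND8 in a chromatin reader complex, from 80.4 ± 0.95 to 127 ± 7.02 CPM (SD, n = 4 each; adjusted p = 1.8e-05 and 8.0e-06). ZNF626, ZNF121, ZNF317 and ZNF333 rose by 0.68 to 0.82 on the log2 scale. With the length offset ZNF626 was at 0.37 and ZNF333 at 0.45.

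Falls reached further among the 300 genes chosen by vehicle TPM, with 12 falls and 1 rise by a log2 change of 1 or more. Of these 12 falls, 8 were in genes of vehicle rank 201 to 300. With the 300 chosen by treated TPM there were 4 such rises and 3 such falls, so the excess of large falls depends on the choice of genes. ZNF688 is a short KRAB gene with 2 fingers at the low end of the 300. It had 4.26, 5.12, 5.10 and 4.90 CPM in vehicle libraries and 1.94, 1.91, 1.67 and 1.26 in treated ones. Its log2 change was -1.51 ± 0.145 (adjusted p = 1.3e-05). ZNF660, without KRAB, had 61.2, 45.8, 48.8 and 49.2 CPM in vehicle libraries and 17.8, 18.4, 17.5 and 20.1 in treated ones, a change of -1.47 ± 0.10 (adjusted p = 1.2e-06). In both genes the lowest vehicle value was more than double the highest treated value. ZNF33B, at 34.0 TPM the most abundant of the 12 largest falls, had 111, 82.4, 87.7 and 86.8 CPM in vehicle and 34.8, 37.0, 36.1 and 43.1 CPM in treated libraries. Its change was -1.28 ± 0.11 (adjusted p = 4.6e-06), or -0.81 with the length offset, while 21.1% of its transcript sequence is shared with other genes. ZNF551, ZNF493, ZNF789, ZNF670, ZNF691, ZNF814, ZNF784 and ZNF273 fell by 1.01 to 1.40 with no overlap between the groups, though ZNF814 and ZNF273 share 36.5% and 30.2% of their transcript sequence with other genes. All 24 genes with the largest rises and falls kept their call in each of 13 other fits.

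**Figure D3:**
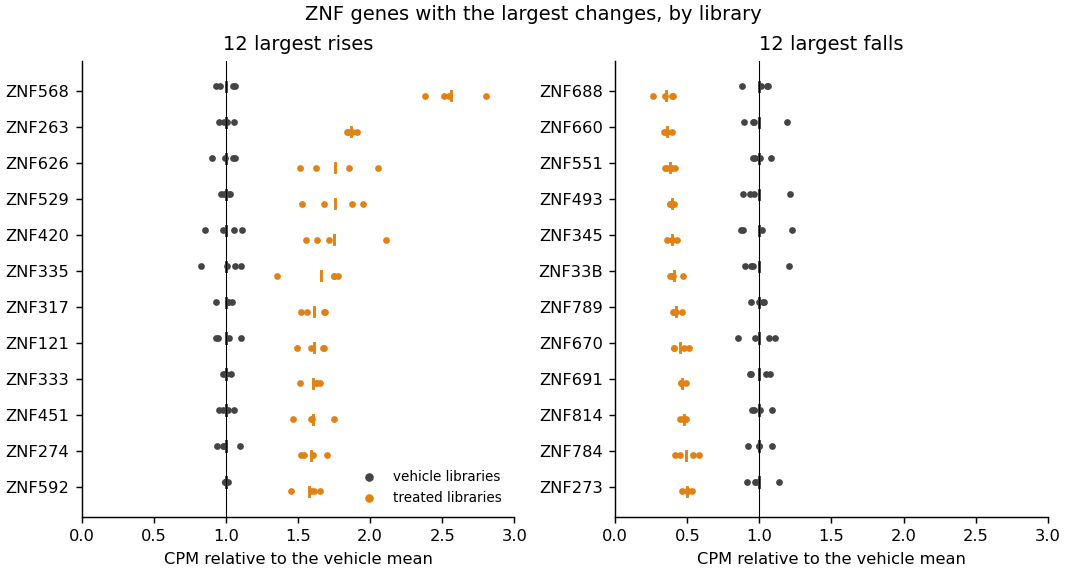
CPM of each library divided by the gene's vehicle mean for the 24 most changed genes (12 higher, 12 lower) with the same sign in every same-numbered pair; points are libraries (4 per group) and short lines group means. In none of the 24 genes do treated and vehicle libraries overlap.

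In one pair chosen after its values were seen, related promoters went with opposite changes. ZNF493 and ZNF626 lie in the same cluster of chromosome 19, ZNF14 to ZNF43, and their 250 bases upstream of the start were identical at 194 of 247 aligned bases (78.5%). ZNF493 had 48.6, 35.6, 38.7 and 37.6 CPM in vehicle libraries and 15.3, 15.8, 15.4 and 16.4 in treated ones. ZNF626 had 15.1, 12.9, 14.2 and 14.9 CPM in vehicle libraries and 21.6, 23.2, 26.5 and 29.3 in treated ones. The first fell by 1.35 ± 0.10 and the other rose by 0.82 ± 0.10 on the log2 scale, without overlap in either gene (adjusted p = 2.0e-06 and 8.8e-05). With the length offset the rise of ZNF626 was 0.37. The sequences are shown for that contrast, from RefSeq on GRCh38.p14, chr19:21396883-21397132 on the plus strand for ZNF493 and chr19:20661572-20661821 on the minus strand for ZNF626, with each CG in capitals:
ZNF493: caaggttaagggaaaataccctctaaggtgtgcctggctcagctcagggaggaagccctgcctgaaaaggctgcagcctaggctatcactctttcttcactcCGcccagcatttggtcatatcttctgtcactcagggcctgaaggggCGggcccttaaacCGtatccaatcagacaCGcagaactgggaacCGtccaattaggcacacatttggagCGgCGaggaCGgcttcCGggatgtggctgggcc
ZNF626: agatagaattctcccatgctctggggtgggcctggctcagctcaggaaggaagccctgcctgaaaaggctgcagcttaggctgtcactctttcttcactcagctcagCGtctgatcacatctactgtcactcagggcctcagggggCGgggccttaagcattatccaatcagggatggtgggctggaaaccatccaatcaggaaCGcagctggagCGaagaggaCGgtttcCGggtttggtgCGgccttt
Both are poor in CG, with 9 and 7 in 250 bases.

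A KRAB domain was found in 186 of the 300 genes by a sequence profile on translated GENCODE transcripts. Of these KRAB genes 51 rose (27.4%) and 70 fell (37.6%), with a median log2 change of -0.04. Of the 114 without KRAB 33 rose (28.9%) and 27 fell (23.7%), with a median of 0.00. When the 300 genes were chosen by TPM over all 8 libraries, 63 KRAB genes rose and 59 fell, so the lean of KRAB genes toward falls depends on the choice of genes. Of 128 genes on chromosome 19, 37 rose and 41 fell, and of 172 elsewhere 47 and 56. The proteins had a median of 10 fingers, 12 with KRAB and 7.5 without, and up to 35 in ZNF142. Genes with 16 or more fingers had 14 rises and 19 falls in 50, and genes with up to 5 fingers 17 and 15 in 60. Counts also differed with sequence sharing: of 55 genes with at least 20% of their transcript in shared stretches of 31 bases 8 rose and 22 fell, while of 104 genes with under 5% shared and no exon overlap with the other strand 33 rose and 30 fell. Without the vehicle library of differentiation 2 the genes with 20% or more had 13 rises and 21 falls, and with the 300 chosen by treated TPM 11 and 16 in 52.

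A broad list of KRAB corepressor and heterochromatin genes leaned downward, though its members TRIM28 and SETDB1 were not called. Of its 23 genes 11 fell (47.8%) and 1 rose (4.3%), with a median of -0.16. Of all protein-coding genes tested 29.2% fell and 30.0% rose. Over 13 other fits 7 to 14 genes of the list fell and 0 to 3 rose. TRIM28, the KRAB corepressor itself, had 212, 331, 352 and 345 CPM in vehicle and 413, 395, 402 and 310 CPM in treated libraries. The groups overlapped, the vehicle library of differentiation 2 was far below the other vehicle libraries, and the change was 0.29 ± 0.16 on the log2 scale (adjusted p = 0.132), or 0.15 without that library (edgeR adjusted p = 0.198). SETDB1 had 73.2 ± 1.10 and 75.8 ± 1.35 CPM (adjusted p = 0.436). MPHOSPH8 and PPHLN1, both subunits of the HUSH silencing complex, fell by 0.67 and 0.44 on the log2 scale, and CHD3 of the NuRD complex rose by 0.21, a call lost in 8 of 13 other fits. Other zinc finger families of the list moved as follows. Of 24 tested SCAN genes under other symbols 4 rose and 9 fell, led by ZSCAN5A (0.80) and ZSCAN23 (-0.96). Of 41 BTB zinc finger genes 17 rose and 17 fell, among them ZBTB40 (1.04) and ZBTB8B (-2.37). Of 17 tested ZFP genes 3 rose and 7 fell, with ZFP69B at 1.20 and ZFP90 at -0.54. Among 21 tested genes named KLF or SP 11 rose and 3 fell, with KLF15 at 3.01, KLF13 at -1.11 and KLF14 at -2.87. Levels were low for KLF15 (mean 0.60 CPM in vehicle, 4.88 in treated) and KLF14 (0.42 and 0.06). The rises SP6 (0.18 and 0.65 CPM) and SP9 (0.11 and 0.37) were also in genes near the floor. The 21 include SP100 (not called), which is not of the SP zinc finger family.

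Of 9 measured genes in a list of retroelement and heterochromatin repressors 4 rose and 2 fell. Among all 300 genes 28% rose and 32.3% fell, and neither this list nor those that follow were tested as sets. ZNF274, which brings SETDB1 to the 3' ends of zinc finger genes, had 19.9, 22.0, 19.7 and 18.9 CPM in vehicle and 32.2, 34.2, 30.97 and 30.5 in treated libraries, a rise of 0.67 ± 0.07 without overlap (adjusted p = 2.7e-05). ZNF445, a guardian of imprinting, rose from 114 ± 7.34 to 146 ± 11.7 CPM, and ZNF10 (KOX1), whose KRAB domain is the standard repression module in the laboratory, from 34.3 ± 1.63 to 51.0 ± 6.75 CPM. ZNF93, which silences LINE-1 elements, fell from 34.9 ± 5.53 to 25.8 ± 1.04 CPM (edgeR adjusted p = 4.46e-03). ZNF91, the silencer of SVA elements, did not pass the test at the level of the gene (-0.13 ± 0.11, adjusted p = 0.345), but its transcripts shifted, as described further on. ZNF649 and ZNF268 were not called either, though with the length offset ZNF268 was called lower (-0.525, edgeR adjusted p = 1.12e-04). ZNF202, a repressor of lipid genes, rose from 17.1 ± 1.24 to 23.5 ± 1.66 CPM, and lost the call when a length offset was used (edgeR adjusted p = 0.104). ZNF675, an inhibitor of TRAF6 signalling, fell by 0.38 with an adjusted p of 0.048 that was lost in 6 of 13 other fits, among them that without the vehicle library of differentiation 2 (-0.20).

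In a list of 10 genes with links to mitochondria and stress 4 rose and 2 fell, against 28% and 32.3% of the 300. Of the rises 3 were in genes that act on ribosomes, the other being ZNF420. By library totals 2 rose and 3 fell. ZNF598, the ubiquitin ligase that marks collided ribosomes, had 41.3, 53.2, 54.2 and 50.7 CPM in vehicle and 85.5, 83.0, 81.6 and 55.5 CPM in treated libraries, a rise of 0.62 ± 0.14 (adjusted p = 3.42e-03). Its groups were separated narrowly, through the treated library of differentiation 5. ZNF622 and ZNF593, which act in maturation of the large ribosomal subunit, rose by 0.25 ± 0.06 and 0.34 ± 0.10 on the log2 scale, and both lost the call when scaled by library totals (adjusted p = 0.063 and 0.055). All exon sequence of ZNF593 overlaps a gene on the other strand.

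ZNF746 (PARIS), the parkin substrate that represses PGC-1α and is studied in Parkinson's disease, had 21.7, 27.4, 29.98 and 29.1 CPM in vehicle and 25.0, 23.8, 25.2 and 22.1 CPM in treated libraries. The groups overlapped through the vehicle library of differentiation 2, and the change of -0.17 ± 0.10 did not pass (adjusted p = 0.177). Without that library it was -0.27 with an edgeR adjusted p of 5.08e-03. The falls of the list were ZNF706 and the double-stranded RNA binder ZNF346. ZNF706 changed by -0.35, and with the length offset by -0.14, where the call was lost (edgeR adjusted p = 0.106). ZNF346 changed by -0.18, with a call lost in 6 other fits, and by -0.35 with the length offset and -0.28 by library totals.

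Of 6 RNA and mitosis factors 2 rose, ZNF451 and the nucleolar ZNF330 (0.42), and 1 fell, ZNF326. By library totals 2 of the 6 rose and 3 fell. Of all 300 genes 28% rose and 32.3% fell. ZNF326, a subunit of the DBIRD complex, which couples splicing to elongation by RNA polymerase II, had 141, 100.7, 100.7 and 95.2 CPM in vehicle and 55.96, 60.9, 54.4 and 58.6 CPM in treated libraries. The groups did not overlap, and the change was -0.93 ± 0.12 (adjusted p = 8.8e-05), or -0.79 without the vehicle library of differentiation 2. Of 9 genes tied to the ZMYND8 and NuRD complexes 2 rose, ZNF592 and ZNF219, and 3 fell. The rise of ZNF219 (0.49, adjusted p = 0.0433) was lost in 8 of 13 other fits. ZNF217, a CoREST-associated oncogene product, fell by 0.70 ± 0.10, and ZNF512B, linked to amyotrophic lateral sclerosis, by 0.68 ± 0.13. ZNF644, a partner of the G9a methyltransferase, fell by 0.36 ± 0.10, or by 0.20 with the length offset (edgeR adjusted p = 0.0394).

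Of 10 promoter and chromatin factors in another list 5 rose and none fell, and by library totals 3 rose and 3 fell. Of all 300 genes 28% rose and 32.3% fell, and by library totals 54 genes rose and 122 fell. ZNF143, which binds the promoters of small nuclear RNA and many coding genes, had 22.0, 18.2, 20.6 and 19.2 CPM in vehicle and 26.7, 26.5, 27.7 and 27.4 CPM in treated libraries, a rise of 0.44 ± 0.07 without overlap (adjusted p = 5.2e-04). ZNF410, known as a dedicated activator of CHD4, rose from 39.0 ± 5.18 to 58.1 ± 3.62 CPM, while CHD4 fell from 922 ± 37.7 to 786 ± 34.7 CPM (adjusted p = 8.72e-03). However, 88.7% of the ZNF410 transcript is shared with other annotated transcripts, so its count is uncertain. ZNF384 and ZNF131 rose by 0.27 and 0.25 and lost the call in 7 and 8 of 13 other fits.

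Of 10 listed genes of neural development 1 rose, ZNF335, and 2 fell, against 28% and 32.3% of the 300. Without the vehicle library of differentiation 2, 4 rose and 2 fell, and by library totals 1 rose and 4 fell. ZNF521, an inhibitor of EBF factors that promotes neural fate, had 130, 115, 109 and 110 CPM in vehicle and 72.1, 73.3, 69.8 and 74.1 CPM in treated libraries, a change of -0.68 ± 0.07 without overlap (adjusted p = 1.8e-05). ZNF462, whose loss causes a neurodevelopmental syndrome, fell from 95.9 ± 18.2 to 66.3 ± 6.82 CPM (edgeR adjusted p = 4.61e-03). The psychosis-associated ZNF804A went from 33.1 ± 9.39 to 35.6 ± 4.14 CPM (edgeR adjusted p = 0.615), with the vehicle library of differentiation 2 far above its group. Without that library ZNF804A was called higher, with a log2 change of 0.32 (edgeR adjusted p = 8.71e-03).

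Calls were also counted by the CG content of the promoter. RefSeq promoter sequence, 250 bases before to 50 after the start, matched 262 of the 300 genes, which were divided into 4 ranges by CG dinucleotides per 100 bases. In the range with the fewest (0.67 to 5.67) 12 of 71 genes rose and 30 fell, with a median log2 change of -0.15. In the range with the most (10.33 to 17.67) 24 of 61 rose and 13 fell, with a median of 0.17. The middle ranges lay between, with 15 rises and 22 falls in 61 genes and 23 rises and 19 falls in 69. All protein-coding genes in the same CG ranges showed no such order: 30.9%, 25.1%, 29.9% and 30.0% were higher and 28%, 32.4%, 30.7% and 29.9% lower, from fewest to most. The lowest range moved with the choice of genes. With the 300 chosen over all 8 libraries, the lowest range had 17 rises and 23 falls in 69 genes and the highest 25 and 13 in 62, and with the 300 chosen by treated TPM the lowest had 19 and 20 in 67. Without the vehicle library of differentiation 2, the lowest range had 16 rises and 29 falls and the highest 29 and 16. By library totals the lowest had 8 rises and 35 falls and the highest 16 and 15, so the highest range had nearly equal counts with that scaling. KRAB genes were unevenly spread: the lowest range held 55 of them, with 7 rises and 25 falls, and 16 without KRAB, with 5 and 5. The highest range held 21 KRAB genes, with 10 rises and 9 falls, and 40 without KRAB, with 14 and 4. No test of the difference between ranges was made.

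**Figure D4:**
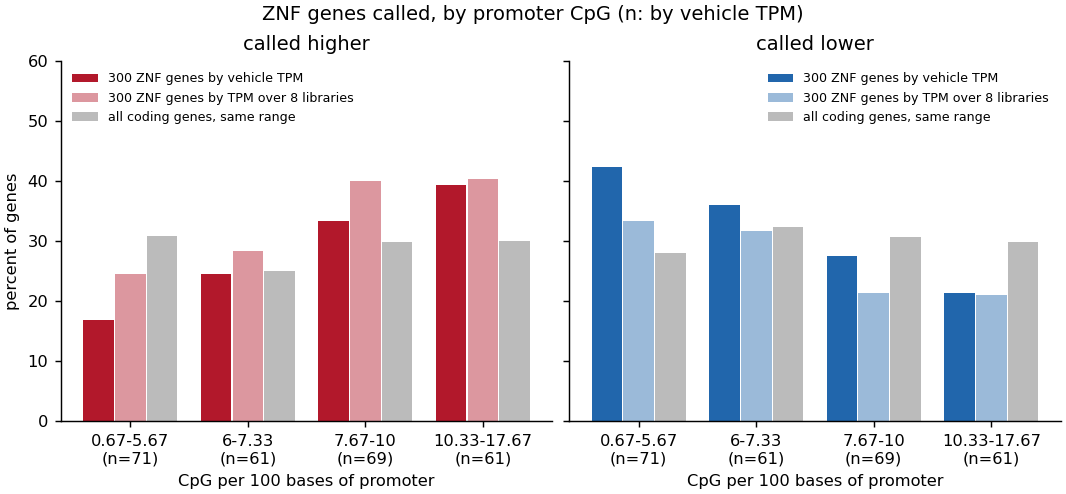
Percent of genes called higher (left) and lower (right) by promoter CG content, for the 300 ZNF genes chosen by vehicle TPM, for 300 chosen over all 8 libraries, and for all coding genes in the same range. From the lowest to the highest range the share called higher goes from 16.9% to 39.3% and the share called lower from 42.3% to 21.3% in the first set.

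The letters TGACGTCA, the cyclic AMP response element bound by CREB and ATF factors, were found on either strand in 12 of the 262 promoters, which is 4.58%, against 1.98% of 27305 RefSeq promoters. Of these 12 genes 9 rose and 1 fell, with a median of 0.38, and of 370 coding genes with the element 40.3% rose and 20.5% fell. By library totals 6 of the 12 rose and 1 fell. Dibutyryl cyclic AMP was in the medium of both groups. The element is shown in capitals with 10 bases on each side in the gene's own direction, from the largest rise to the fall, because the genes differ in response while sharing it. The windows, from RefSeq on GRCh38.p14 with their strand, are ZNF335 chr20:45972403-45972430 (minus), ZNF121 chr19:9584537-9584564 (minus), ZNF10 chr12:133130570-133130597 (plus), ZNF511 chr10:133308868-133308895 (plus), ZNF143 chr11:9460838-9460865 (plus), ZNF330 chr4:141220864-141220891 (plus), ZNF593 chr1:26169836-26169863 (plus), ZNF266 chr19:9435573-9435600 (minus), ZNF426 chr19:9538649-9538676 (minus), ZNF200 chr16:3235194-3235221 (minus), ZNF561 chr19:9621238-9621265 (minus), ZNF562 chr19:9675090-9675117 (minus):
ZNF335: gggaccagaaTGACGTCAcaaccacttc
ZNF121: ggagcggaagTGACGTCAgcgcacaatc
ZNF10: tgcgcgtgcgTGACGTCAggccacgggg
ZNF511: gaagtgagcgTGACGTCAcgtccggctc
ZNF143: caggcttggcTGACGTCAgttgagtggg
ZNF330: tcccgtcctaTGACGTCAgccgtaaggc
ZNF593: tggccgagagTGACGTCAtcagaggcgg
ZNF266: gaggcggaagTGACGTCAcggagcgctg
ZNF426: agagcgtaaaTGACGTCAgcggtgcgcc
ZNF200: gcaccggttgTGACGTCAcagccgcaga
ZNF561: gaagcggaagTGACGTCAgcgcaccacc
ZNF562: ggagcggaagTGACGTCAgtgtgccacc
Of the 12, 5 lie together on chromosome 19, namely ZNF266, ZNF426, ZNF121, ZNF561 and ZNF562, with windows between positions 9435573 and 9675117. The windows of ZNF121 and ZNF561 were identical at 25 of 28 bases and those of ZNF121 and ZNF562 at 23 of 28. Yet ZNF121 had 84.2, 77.9, 71.7 and 71.0 CPM in vehicle and 114, 121, 128.2 and 127.6 CPM in treated libraries, a rise of 0.69 ± 0.07 (adjusted p = 2.6e-05). ZNF561 changed by 0.01 and was not called, and ZNF562 fell by 0.26 on the log2 scale.

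Other motifs were searched on both strands as well. CCGGAAGT, a core of ETS factor sites, was in 17.56% of the ZNF promoters and in 4.44% of all promoters, and 21 of the 46 genes with it rose and 10 fell. By library totals these became 12 and 13. Of 942 coding genes with it 31.7% rose and 27.4% fell. The ZNF143 site core was in 6 promoters (2.29%, against 0.26% of all), with 4 rises and 1 fall, while of 59 coding genes with it 22.0% rose and 40.7% fell. TGATGNAA, the composite site of CHOP and ATF4, was in 3 promoters (1.15%, against 3.67% of all), with 1 rise and 1 fall. TGACNNNGC, a core of the antioxidant response element, was in 38 (14.5%, against 13.56% of all), with 12 rises and 9 falls.

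Transcript usage changed about as often in ZNF genes as in others. Of 224 genes with at least 2 measurable transcripts, 50 had a changed share (limma on log ratios, Simes p per gene, adjusted p under 0.05), against 20.3% of 8816 genes tested. Of the 50, 16 had no call at the level of the gene, 15 rose and 19 fell, and 38 were KRAB genes of 150 tested. Without 1 library at a time the count ran from 32 to 65, and it was 18 with the differentiation number as a block and 19 by edgeR diffSpliceDGE. Shares are estimates from the authors' quantifier, which divides reads among overlapping transcripts.

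ZNF519, not called at the level of the gene (-0.15 ± 0.07, adjusted p = 0.0999), had the smallest adjusted p. A 6-exon processed transcript without a coding sequence took 48.1, 48.8, 45.8 and 42.9% of its reads in vehicle and 70.9, 74.5, 73.4 and 72.0% in treated libraries. The coding transcript of 3 exons took 42.9, 42.9, 45.4 and 45.9% in vehicle and 15.7, 14, 15.5 and 14.6% in treated libraries (adjusted p = 1.9e-04). The groups were far apart, and the transcript that gained ends 32741 bases further downstream than the one that lost.

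ZNF91 also shifted toward a transcript without a coding sequence, on a smaller scale. A 2-exon processed transcript rose from 6.33 ± 0.98 to 20.7 ± 0.70% of its reads. The main coding transcript dropped from 72.7 ± 3.98 to 61.3 ± 2.09% (SD, n = 4, limma adjusted p = 9.2e-04). The gaining transcript starts 36715 bases downstream of the start of the losing one and ends 50887 bases downstream of its end. In ZNF519 the gaining and losing transcripts start close together. In ZNF765 the full coding transcript, with a coding sequence of 1569 bases, fell from 82.0 ± 1.10 to 55.0 ± 3.09%, and one with a coding sequence of 180 bases rose from 12.9 ± 1.59 to 34.8 ± 2.98%. ZNF518B went the other way, since a retained-intron transcript fell from 21.9 ± 1.83 to 8.32 ± 0.28% and the coding one rose from 76.7 ± 1.49 to 90.5 ± 0.45%. In ZNF568, a 10-exon coding transcript rose from 55.1 ± 1.43 to 81.1 ± 0.94% of the reads while the gene itself rose.

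**Figure D5:**
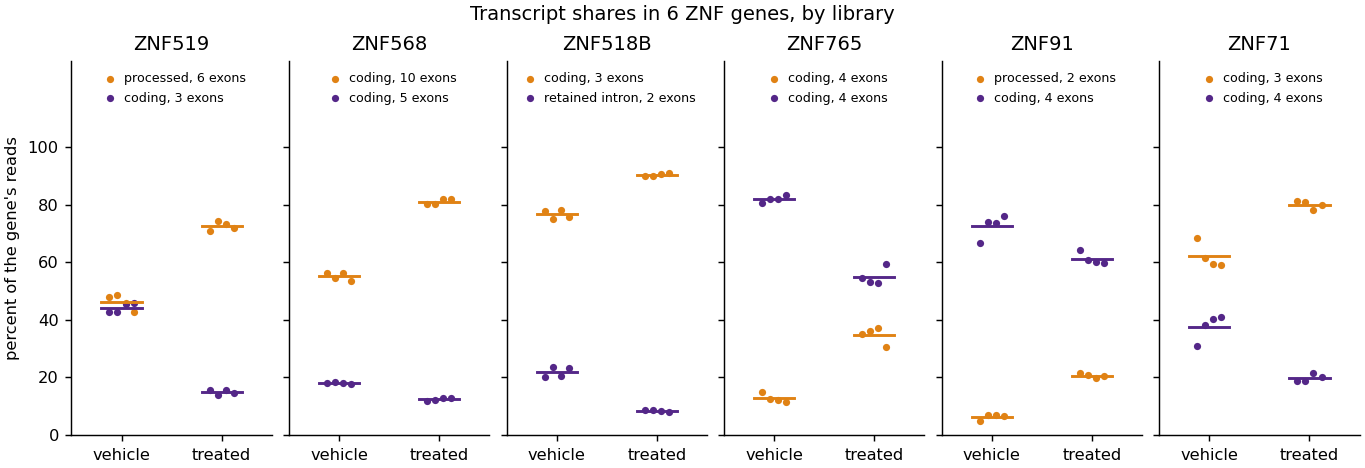
Percent of a gene's reads on the tested transcripts with the largest gain (orange) and loss (purple) in log ratio and no overlap between groups. Shown are the 5 genes with the smallest adjusted p and ZNF71. Points are libraries (4 per group) and lines group means. Other transcripts of these genes are not plotted. The gaining and losing transcripts of ZNF519 start level in vehicle libraries and lie at 72.7% and 14.9% in treated ones.

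The gaining transcript often ended further downstream. The call is made per gene, so the pairs of transcripts are a description. In 33 of the 50 genes 1 transcript gained and another lost, each with no overlap in share between the groups. In 19 of them (57.6%) the gaining transcript ended more than 100 bases downstream of the losing one, in 4 (12.1%) more than 100 bases upstream, and in 10 (30.3%) within 100 bases. Over all 1175 genes of this kind the shares were 31.7%, 24.5% and 43.7%. With pairs taken by mean share alone where the groups overlap, there were 23, 5 and 15 of 43 genes, against 31%, 24.4% and 44.6% of 1560. The gaining transcript was the shorter one in 15 of 33 genes and in 51.1% of the 1175. In 4 of the 33, named after their values were seen, one of a pair of coding transcripts held a KRAB domain and the other did not. The transcript without KRAB gained in ZNF71, ZNF254 and ZNF559, and the one with KRAB in ZNF268, where the losing transcript took 47.5% in the vehicle library of differentiation 2 and 19.4 to 21.3% in the other vehicle libraries. In ZNF71 the KRAB transcript took 37.6 ± 4.52% of the reads in vehicle and 19.7 ± 1.45% in treated cells (limma adjusted p = 3.31e-03). Over all 300 genes together, coding transcripts took 94.6 ± 0.35% of reads in vehicle and 94.2 ± 0.19% in treated cells, and retained-intron transcripts 1.95 ± 0.08% and 2.27 ± 0.18%. Over all protein-coding genes, retained-intron transcripts took 3.83 ± 0.16% and 4.39 ± 0.23%.

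The authors' deposited table of coding genes held 299 of the 300 genes, all but ZNF875. There the authors' deposited values had 73 higher and 97 lower at a false discovery rate under 0.05, where its background was 28.1% and 29.6%. Calls were shared with the same sign for 166 genes, and none had opposite signs.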

How the data were processed

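The mRNA of 8 libraries was sequenced. The authors deposited, per library, a gene and a transcript table with estimated counts and TPM, the latter scaled by effective length per the file headers. The quantifier is not named in the labels or headers. HISAT2, SAMtools, StringTie and hg38 are listed, without roles, per the submitters' processing notes. A log2 fold change with its p-value and false discovery rate comes from the authors' deposited table for coding genes.

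Estimated counts were rounded. Genes were filtered with filterByExpr, scaled by TMM and tested with edgeR 4.0.16 (glmQLFit, glmQLFTest) in R 4.3.3. Fold changes are treated over vehicle, standard errors are the change over the root of F, and CPM uses TMM sizes. DESeq2 1.42.0, library totals, no filter, a length offset, a replicate block, leaving out each library and other choices of the 300 genes were tried. The scripts were tested on simulated data.

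Transcript usage was planned with edgeR diffSpliceDGE, which made more false than true calls there. It was replaced by limma 3.58.1 on log2((reads + 0.5)/(other reads of the gene + 0.5)), for transcripts with at least 10 reads in 4 libraries and 10 to 90% of the gene's reads. That test found few of the known changes, so genes without a usage call may have one. KRAB was called with HMMER 3.4 from a MAFFT 7.526 alignment (E up to 1e-05) on translated GENCODE transcripts, in place of the RefSeq proteins planned.

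The named genes are the 10 highest, the 12 largest rises and falls of 1 sign in every same-numbered pair, genes of the role lists, 4 around the limit and 5 by usage. The members and lists were chosen with earlier results of these data known. The labels do not say that a differentiation number is a shared batch, and the numbers did not enter the edgeR fit reported, only the choice of the largest rises and falls and a block fit.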

Additional observations from a re-analysis of the deposited data

Results flagged for a closer look

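Among 168 groups of 4 libraries examined for the named genes and the summed TPM, 25 held a library whose gap to the rest was wide by Dixon's test, where chance gives about 1 in 20 groups. Most were the same libraries, and what sets them apart was not tested.

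The vehicle library of differentiation 2 accounted for 15 flags. It lay above the other vehicle libraries for ZNF664 (795.99 CPM, others 667.07 to 678.4), ZNF207 (317.93, others 265.28 to 269.49), ZNF532 (258.08, others 186.79 to 196.02), ZNF91 (170.38, others 121.64 to 124.88) and ZNF326 (141.36, others 95.23 to 100.7). It was also the highest for ZNF644 (144.69 CPM), ZNF675 (36.38), ZNF462 (122.86), ZNF804A (47.2), ZNF649 (18.27) and ZNF730 (11.72). It was the lowest for ZNF428 (34.16 CPM, others 58.81 to 61.23), ZNF516 (143.73), ZNF687 (62.85) and the summed TPM (7512.08, others 8674.05 to 8908.59). Without it 98 genes were called higher and 105 lower.

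The treated library of differentiation 5 accounted for 8 flags. It was the lowest treated library for ZNF358 (50.11 CPM, others 82.41 to 88.98), ZNF598 (55.47, others 81.59 to 85.45), ZNF335 (26.91, others 34.76 to 35.37), ZNF384 (71.51) and ZNF76 (19.57). It was the highest for ZNF286A (136.55 CPM), ZNF410 (63.45) and ZNF730 (5.92). Without it 76 genes were called higher and 104 lower. The remaining flags were ZNF622 in the treated library of differentiation 3 (35.15 CPM, others 37.86 to 38.06) and ZNF691 in that of differentiation 4 (4.64 CPM, others 4.31 to 4.36).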

How the results depend on the processing

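Library totals gave 54 higher and 122 lower genes, a median log2 change of -0.130, and 33 higher and 80 lower KRAB genes. The median was 0.068 with the 300 genes chosen by treated TPM and 0.014 with TPM over all 8 libraries. All ZNF genes that passed the filter gave 134 higher and 166 lower, of which 91 and 121 had KRAB. Usage calls numbered 18 under a replicate block by differentiation number and 19 by edgeR diffSpliceDGE. The replicate block gave 70 higher and 92 lower genes. Same-numbered libraries share only a number: their deviations correlated at -0.080, 0.032, 0.025 and -0.001, and no library correlated best with its own number.

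Leaving out 1 library gave 67 to 98 higher and 87 to 105 lower genes, a median of -0.062 to -0.002, 40 to 59 higher and 62 to 75 lower KRAB genes, 32 to 65 usage calls, and a summed TPM difference of -698.7 to -233.2, against -372.6 with all libraries. Of 53 called named genes 41 kept the call in every fit.

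Values changed sign as follows, and the cause was not tested. By library totals these were ZNF358 (-0.038), ZNF609 (-0.085), ZNF639 (-0.025), ZNF148 (-0.046) and ZNF827 (-0.035). With the length offset they were ZNF207 (0.006), ZNF358 (-0.209), ZNF638 (0.172), ZNF91 (0.157), ZNF639 (-0.028), ZNF148 (-0.016), ZNF827 (-0.035) and ZNF235 (0.094), the last being called lower (-0.39) without the offset. Leaving out 1 library gave ranges of -0.125 to 0.057 for ZNF385A, -0.02 to 0.216 for ZNF358, -0.099 to 0.07 for ZNF532, -0.038 to 0.07 for ZNF609, -0.031 to 0.116 for ZNF148 and -0.141 to 0.03 for ZNF649. The median was 3025 reads per gene and library, and no thinning to a lower depth was made.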
